A study of Mus musculus with 20 samples.

Results

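The 10 genes described here build and regulate the MHC class I pathway, through which a cell displays fragments of its own proteins at its surface. They are the light chain B2m, the heavy chains H2-K1 and H2-D1, the peptide transporter subunits Tap1 and Tap2, the loading bridge Tapbp, the immunoproteasome subunits Psmb8, Psmb9 and Psmb10, and the transcriptional activator Nlrc5. They were chosen by gene symbol. All 10 are among the 24411 genes of the deposited table, and all 10 are among the 15284 that passed the expression filter. The RNA sequenced came from cultured cerebellar granule neurons of the mouse, which are small glutamatergic cells. The study asked whether the enzymatic part of Kdm6b, a demethylase of histone H3 lysine 27, restores expression after the endogenous gene is knocked down. There were 4 groups of 5 libraries: control, shKdm6b (an shRNA against mouse Kdm6b), shKdm6b plus the enzymatic domain of human KDM6B in active form, and shKdm6b plus that domain in dead form. The last pair of groups is called the active rescue and the dead rescue, and both carry the shRNA. Infection was on day 1 in vitro. AraC, which kills dividing cells, was added on day 2, and RNA was taken on day 7. What the controls were infected with, the mouse strain, the age and sex of the donors and the promoter of the rescue domains are not stated in the labels. Nor do the labels tie a library to its own culture or animal. The p-values therefore cover variation among these libraries only, which may be technical.

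In the class I pathway the proteasome cuts cytosolic proteins into peptides. Psmb8, Psmb9 and Psmb10 replace the catalytic subunits Psmb5, Psmb6 and Psmb7 in a form of the proteasome known as the immunoproteasome. Tap1 and Tap2 pump the peptides into the endoplasmic reticulum, where Tapbp (tapasin) holds an empty class I molecule next to the transporter until a peptide binds. The class I molecule is a heavy chain, such as H2-K or H2-D, paired with B2m. Nlrc5 is brought to class I promoters by proteins bound to a composite element, and interferons raise most genes of the pathway, in part through Irf1. Resting neurons are known for low class I expression, and class I molecules have also been studied there for roles in synapse refinement.

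The start regions of B2m, H2-K1 and H2-D1 are shown because they share a sequence arrangement that the other members with a promoter entry did not have. Promoter windows (250 bases before the start, RefSeq, GRCm38.p6) matched 8 of the 10 members; Tap2 and Nlrc5 were not matched. In each of the 3 genes the letters TGACG, as in the centre of a cyclic AMP response element, were followed on the same strand by ATTGG, the reverse complement of a CCAAT box, with the first letters of the motifs 25 bases apart. These stretches are printed 5′ to 3′ in the gene's direction, with both motifs in capitals.
B2m, chr2:122147609-122147638, plus strand: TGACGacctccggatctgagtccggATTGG
H2-K1, chr17:34000359-34000388, minus strand: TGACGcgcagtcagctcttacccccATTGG
H2-D1, chr17:35262993-35263022, plus strand: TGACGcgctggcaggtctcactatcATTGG
Spaced exactly so, the arrangement occurred in 0.0913% of 32851 RefSeq windows of the same length. With starts 20 to 30 bases apart it occurred in 0.381%. The spacing was chosen after these sequences had been seen, and windows of neighbouring starts overlap. A match describes letters and does not show that a factor binds.

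Upstream of this arrangement, B2m and H2-K1 each also held a match to AANNGAAA, the core of interferon regulatory factor sites, and a match to GGGA and CC with any 4 bases between them, a form of the NF-kappaB site. Both were searched on both strands. The 250 bases before each start are printed with the 4 motifs in capitals, again 5′ to 3′ in the gene's direction.
B2m, chr2:122147437-122147686, plus strand: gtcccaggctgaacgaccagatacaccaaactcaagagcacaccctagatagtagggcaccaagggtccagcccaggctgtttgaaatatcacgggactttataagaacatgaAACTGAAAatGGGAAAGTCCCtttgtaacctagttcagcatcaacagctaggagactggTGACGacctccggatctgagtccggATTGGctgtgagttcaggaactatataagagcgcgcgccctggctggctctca
H2-K1, chr17:34000348-34000597, minus strand: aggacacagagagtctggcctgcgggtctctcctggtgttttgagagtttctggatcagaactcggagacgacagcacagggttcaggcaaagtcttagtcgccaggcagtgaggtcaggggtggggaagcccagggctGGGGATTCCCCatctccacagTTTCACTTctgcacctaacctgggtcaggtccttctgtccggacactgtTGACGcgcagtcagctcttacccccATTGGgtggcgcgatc
H2-D1 held the same 4 motifs. The interferon regulatory factor core occurred in 21.3% of all windows, the NF-kappaB form in 17.6%, TGACG in 17.8% and ATTGG in 33.8%, so each by itself is common. Among the other 5 matched members neither the interferon regulatory factor core nor the NF-kappaB form was found. For Tapbp and Psmb9 the window lay inside the gene as GENCODE annotates it. The bases before their GENCODE 5′ ends were thus not searched, and a motif there would have been missed. Tap1 and Psmb9 are transcribed away from each other from RefSeq starts separated by 225 bases, and they share 1 TGACG and 1 ATTGG (read as CCAAT on the other strand).

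The members lie in 3 places in the genome (GRCm38, or mm10, by GENCODE; whole genes with exons, introns and UTRs). B2m lies on chromosome 2 from 122147686 to 122153083. On chromosome 17, in the MHC, lie Tapbp (33915899 to 33929292), H2-K1 (33996017 to 34000347), Psmb9 (34181987 to 34187764), Tap1 (34187553 to 34197225), Psmb8 (34197721 to 34201454), Tap2 (34203527 to 34216321) and H2-D1 (35262730 to 35267499). Chromosome 8 holds Nlrc5 (94434356 to 94527272) and Psmb10 (105935735 to 105938444). H2-K1 and H2-D1 share sequence with other class I genes: 22.8% and 26.7% of their distinct 31-base stretches occur in transcripts of another gene, so how the counting divided such reads is uncertain. The 5′ ends of Tap1 and Psmb9 overlap on opposite strands in GENCODE, whereas their RefSeq starts lie 225 bases apart. The Psmb9 promoter window, placed by the RefSeq start, thus lies inside the GENCODE gene. The same holds for the Tapbp and H2-D1 windows. Tapbp had an ATTGG match from 33919230 and H2-D1 a TGACG match from 35262993, both beyond the GENCODE start of the gene. It is not stated that counting used strand, so reads from the overlap are uncertain too. For B2m, Psmb9, Psmb10 and Nlrc5 no 31-base stretch was shared.

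Libraries held 14200745 to 21179300 estimated counts. Same-numbered libraries resembled each other across groups, and the fit with the number as a block is called the paired fit. Kdm6b was lower in shKdm6b than in control (83.0 ± 28.3 against 144 ± 40.5 CPM, counts scaled to library size; SD, n = 5 each; paired edgeR log2 fold change -0.88 ± 0.21 SE, adjusted p = 0.0231; without pairing edgeR gave an adjusted p of 1). In the rescues it stood at 212 ± 109 and 176 ± 92.2 CPM (n = 5 each), where the count may include reads from the human domain. In numbers 1 to 5 Kdm6b measured 290, 312, 266, 73.2 and 119 CPM in the active rescue. It measured 272, 250, 192, 54.9 and 109 CPM in the dead rescue, and 141, 171, 139, 81.2 and 187 CPM in control. Both rescues thus lay above control in numbers 1 to 3 and below it in numbers 4 and 5, though above shKdm6b in every number. Libraries numbered 4 stood apart: summed CPM of 14 astrocyte and Bergmann glia markers was 13235 to 17150 there against at most 8143 elsewhere, and of 14 granule neuron markers 2340 to 3709 against at least 5783. Fibroblast and meningeal markers (10 genes) were highest in libraries numbered 5, at 25989 to 33569 CPM. The granule neuron label was met by Neurod1, Zic1 and Gabra6 in all 20 libraries (92.1 to 746, 260 to 1266 and 34.7 to 275 CPM), alongside Gfap at 502 to 5480 CPM. Libraries numbered 4 and 5 also held less of the nuclear RNA Malat1 (217 to 997 CPM) than those numbered 1 to 3 (4422 to 6888 CPM). The ribosomal RNA entry Rn45s was split likewise, at 2127 to 5816 CPM in numbers 4 and 5 against 24208 to 76079 CPM in numbers 1 to 3. These libraries thus differed in more than cell type markers.

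All 10 members were measured in every library, and most kept their order of abundance from library to library. Per kilobase of annotated exon, B2m led in control at 1004 ± 379 CPM/kb (SD, n = 5 for each value here). H2-D1 (201 ± 54.2) and H2-K1 (127 ± 64.1) followed, then Tapbp (60.2 ± 20.2), Psmb10 (29.5 ± 24.6), Psmb8 (18.3 ± 12.8), Tap2 (17.4 ± 9.36), Tap1 (16.1 ± 5.00), Psmb9 (4.93 ± 3.79) and Nlrc5 (1.29 ± 0.19 CPM/kb). Only the first and the last were separated from their neighbour by ranges that do not overlap among control libraries. Within a library the order held more tightly: H2-D1 exceeded H2-K1 in 20 of 20 libraries, H2-K1 exceeded Tapbp in 20 of 20, and Tap1 exceeded Psmb9 in 20 of 20. Psmb8, Tap2 and Tap1 changed places: Psmb8 exceeded Tap2 in 3 of 20 libraries and Tap2 exceeded Tap1 in 8 of 20. Thus the message for the light chain was the most abundant and that for the activator Nlrc5 the least.

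The library number accounted for most of the variation of 9 members. The share of the sum of squares of log2 CPM between numbers ran from 69.6% (H2-D1) to 93.1% (Tap2), against 2.72% (Tap2) to 12.8% (H2-D1) between groups. Nlrc5 was the exception, with 31.9% between numbers and 28.2% between groups. The number was not particular to the members. Over all genes tested, same-numbered libraries of different groups also ran together (r 0.361 to 0.881 in 30 library pairs). The same shares over all genes are not given here, so the members cannot be set beside them. In control, shKdm6b and the active rescue, 9 of 10 members had their highest value in the library numbered 4, and in the dead rescue 8 of 10 did. Control Nlrc5 went the other way, with its lowest value in number 4. Because these are bulk cultures, more cells of a type and more RNA per cell cannot be told apart. Within each group, the summed astrocyte markers were also highest in number 4. So were the sums of the interferon-stimulated effectors, the other class I heavy chains and the class II genes described below. The part of any of these in the members' levels was not tested.

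**Figure D1:**
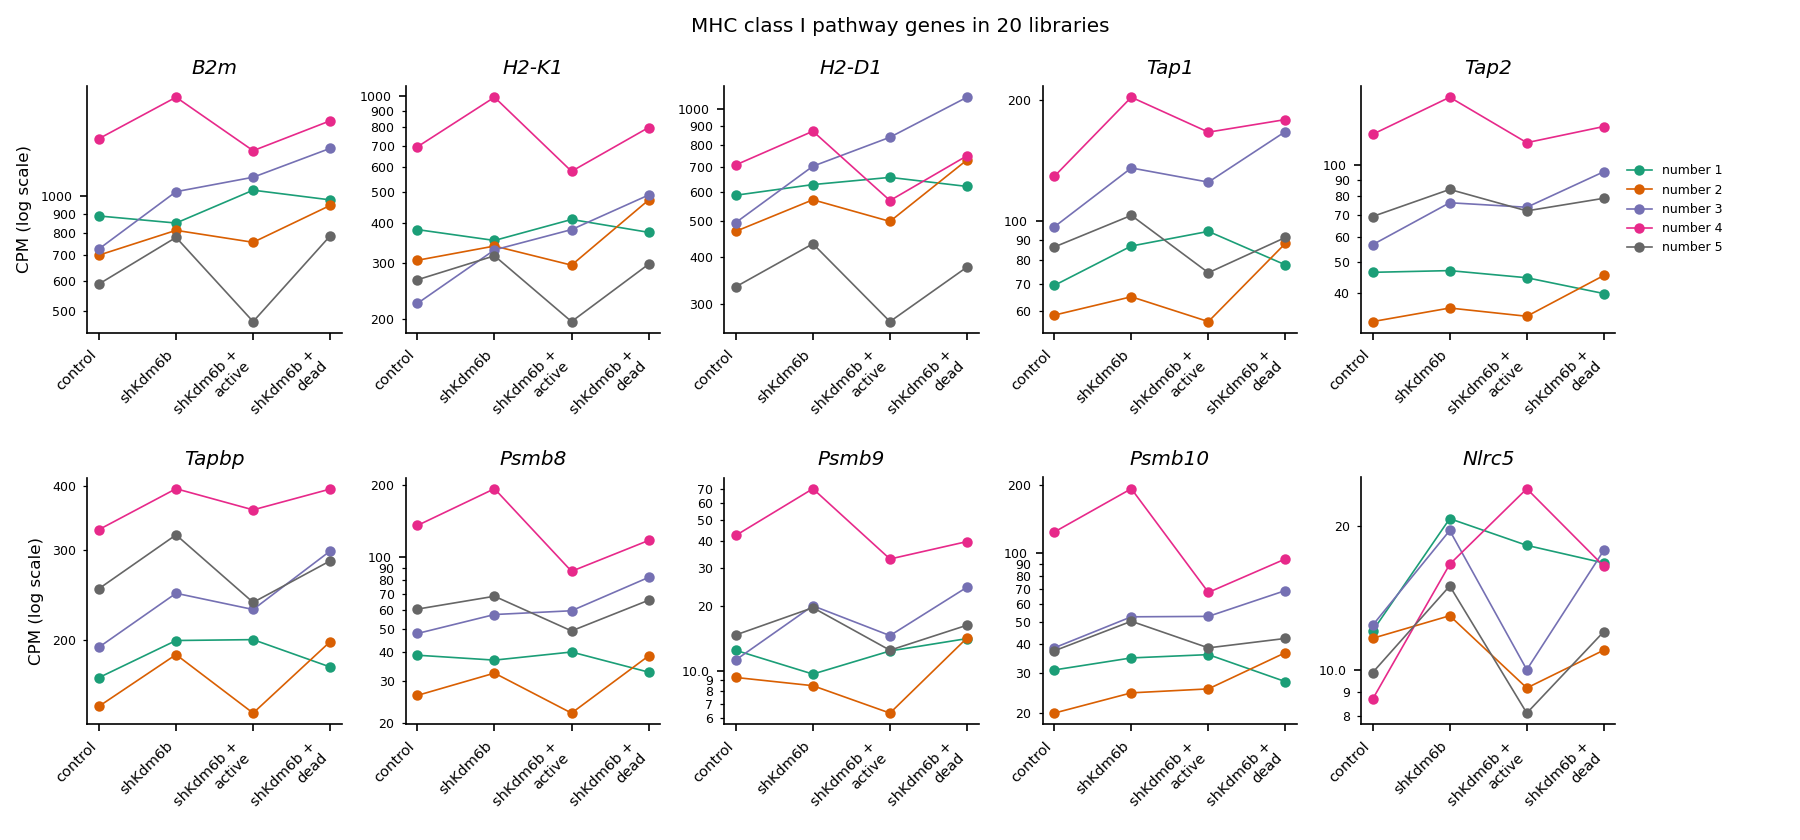
Normalised level of each member (CPM, log axis) in the 4 groups; points are libraries and lines join libraries of the same number. Libraries numbered 4 lie at the top for 9 of 10 members in control, while Nlrc5 ran from 8.68 to 12.4 CPM in control and from 13.0 to 20.7 CPM in shKdm6b.

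In shKdm6b against control, every member had a positive log2 fold change, but none passed the threshold of 0.05 in edgeR. Fold changes in the paired fit ran from 0.25 (Tap2) to 0.60 (Nlrc5), with a median of 0.31 against 0.01 over all genes tested. Called members were 0 of 10 without pairing, where 0.00654% of all genes were called, and 0 of 10 in the paired fit, where 4.14% were. At an unadjusted p under 0.05 there was 1 member without pairing, beside 477 of 15284 genes. With pairing there were 5 members, beside 2283 genes. Among the 50 same-numbered member pairs, 45 were higher in shKdm6b. They come from 5 pairs of libraries and from genes that largely ran together, so they are not 50 separate observations. Of the 10 members 6 (H2-D1, Tap1, Tap2, Tapbp, Psmb10 and Nlrc5) were higher in 5 of 5 pairs, as were 12.9% of all genes, and 9 were higher in at least 4 of 5, as were 31.2%. By number, 6, 9, 10, 10 and 10 of the members were higher in numbers 1 to 5, with median log2 differences of 0.06, 0.19, 0.49, 0.52 and 0.37. Number 1 thus showed the smallest difference.

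Nlrc5, the activator, separated the groups. It measured 12.05, 11.63, 12.39, 8.68 and 9.87 CPM in control libraries 1 to 5 and 20.68, 12.97, 19.54, 16.61 and 14.96 CPM in shKdm6b. The highest control lay below the lowest shKdm6b library, which was so for no other member and for 0.857% of all genes. Its paired edgeR log2 fold change was 0.60 ± 0.21 (SE), or 1.52-fold, with an adjusted p of 0.142, and without pairing the adjusted p was 1.

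Of the loading complex, Tapbp showed the most even difference. Its values were 169, 148, 194, 329 and 252 CPM in control and 199, 187, 247, 396 and 321 CPM in shKdm6b. The groups overlapped, yet each shKdm6b library exceeded its same-numbered control by 0.24 to 0.35 on the log2 scale (0.31 ± 0.05, SD over 5 pairs). Paired edgeR gave a log2 fold change of 0.31 ± 0.09 (SE) and an adjusted p of 0.0683, the lowest of the members. Tap1 measured 69.3, 58.5, 96.9, 129 and 86.3 CPM in control and 86.8, 65.0, 136, 203 and 103 CPM in shKdm6b. It too was higher in every pair, by 0.15 to 0.65, although the group ranges overlapped (paired edgeR 0.37 ± 0.12 SE, adjusted p = 0.106). Its partner subunit Tap2 ran from 32.7 to 124 CPM in control and from 36.0 to 162 CPM in shKdm6b, with 5 of 5 pairs higher and 0.25 ± 0.11 (SE) in the paired edgeR fit (adjusted p = 0.286).

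B2m measured 887, 701, 727, 1414 and 589 CPM in control and 850, 814, 1027, 1815 and 780 CPM in shKdm6b. It was higher in 4 of 5 pairs, with number 1 slightly lower, and the paired edgeR fit gave 0.28 ± 0.13 (SE; adjusted p = 0.321). H2-K1 measured 382, 306, 224, 695 and 266 CPM in control and 353, 339, 330, 995 and 316 CPM in shKdm6b. Its pattern was that of B2m, 4 of 5 pairs higher with number 1 lower (0.27 ± 0.16 SE, paired edgeR adjusted p = 0.499). H2-D1 ran from 333 to 709 CPM in control and from 435 to 873 CPM in shKdm6b, and was higher in 5 of 5 pairs (0.31 ± 0.15 SE, paired edgeR adjusted p = 0.356).

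The immunoproteasome subunits spread widely between numbers. Psmb10 measured 30.92, 20.02, 38.64, 124 and 37.5 CPM in control and 34.9, 24.6, 52.8, 192 and 50.5 CPM in shKdm6b. It was higher in 5 of 5 pairs, with group ranges that overlapped (0.42 ± 0.21 SE, paired edgeR adjusted p = 0.373). Psmb9 measured 12.4, 9.29, 11.2, 42.6 and 14.7 CPM in control and 9.63, 8.502, 20.03, 70.26 and 19.62 CPM in shKdm6b. It was lower in numbers 1 and 2 and higher in numbers 3 to 5, the most divided of the members (0.33 ± 0.20 SE, paired edgeR adjusted p = 0.488). Psmb8 ran from 26.2 to 136 CPM in control and from 32.5 to 194 CPM in shKdm6b, with 4 of 5 pairs higher (0.25 ± 0.17 SE, paired edgeR adjusted p = 0.551).

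**Figure D2:**
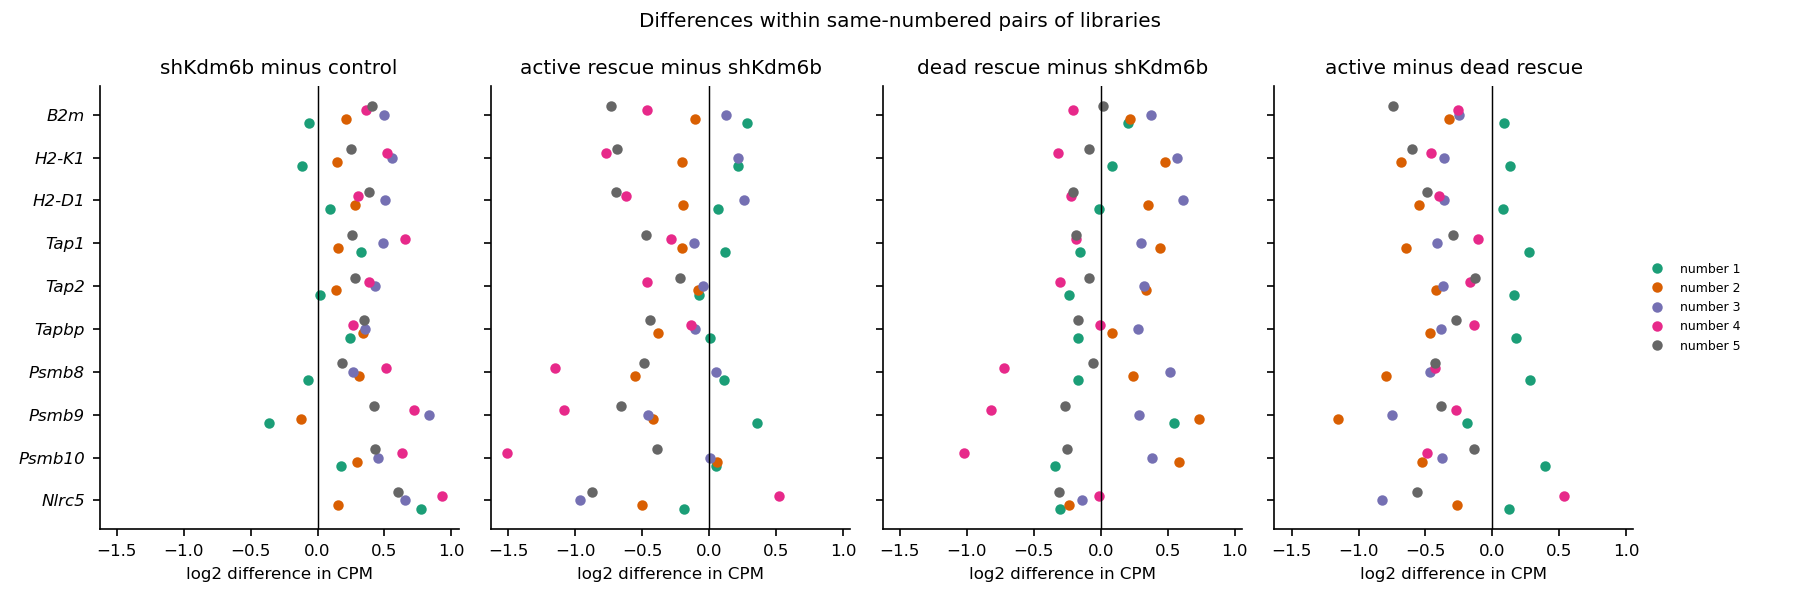
Log2 difference in CPM within same-numbered pairs of libraries for each member (5 points per gene, 1 per number), in 4 comparisons. Of 50 points, 45 lie right of 0 in shKdm6b minus control and 10 lie right of 0 in active minus dead rescue, of which 9 are number 1.

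Whether members were called in this comparison depended on the libraries in the fit and on the tool. When the paired edgeR fit held the control and shKdm6b libraries alone, 12.1% of 14749 genes were called and 5.87% were called higher in shKdm6b, and so were 7 of the 10 members: B2m (adjusted p = 0.0344), H2-D1 (0.00879), Tap1 (0.00667), Tap2 (0.0315), Tapbp (0.00253), Psmb10 (0.00428) and Nlrc5 (0.00654). The fold changes hardly moved (Nlrc5 0.63, Tapbp 0.31). Paired DESeq2 on all libraries called Tapbp alone (adjusted p = 0.0266), where 6.18% of genes were called and 2.58% were called higher. Leaving out the active rescue library numbered 4 from the paired edgeR fit gave 2 calls, Nlrc5 (adjusted p = 0.0175) and Tapbp (0.0459), where 5.93% of genes were called. Leaving out the dead rescue library numbered 1 gave Tapbp (adjusted p = 0.0479), where 3.96% were. Without the 4 libraries numbered 4 all 10 members kept positive fold changes, with a median of 0.26 and no call, where 6.5% of genes were called. In numbers 1 to 3 alone the median was 0.25, again with 10 positive and no call, where 2.91% of genes were called.

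With the active domain added to the shRNA, all 10 members had negative log2 fold changes against shKdm6b, and none was called. The paired fit gave -0.17 (B2m) to -0.49 (Psmb9), with a median of -0.24 against 0.01 over all genes. The adjusted p in edgeR was 1 for every member, where 0.00654% of genes were called. An unadjusted p under 0.05 was held by 3 members and by 577 of 15284 genes. Tap2 was lower in 5 of 5 pairs, as were 1.64% of genes, and 5 members were lower in at least 4 of 5, as were 15.3%. The difference was divided by number. In numbers 4 and 5 the median log2 difference of the members was -0.54 and -0.57, in number 2 it was -0.20 and in number 3 -0.02, and in number 1, 8 of 10 members were higher. In numbers 1 to 3 alone, B2m, H2-K1, H2-D1 and Psmb10 had positive fold changes and the median was -0.07. Psmb10 carried the largest drop of a single pair, from 192 to 67.6 CPM in number 4, while in numbers 1 to 3 it was higher by 0.05, 0.06 and 0.01. Nlrc5 did the opposite in number 4, at 23.9 CPM against 16.6.

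With the dead domain the members lay near shKdm6b. The paired fit gave 7 positive and 3 negative log2 fold changes, from -0.20 (Nlrc5) to 0.15 (H2-K1), with a median of 0.03 against -0.002 over all genes. No member was called (adjusted p of 1 for every member in paired edgeR, 0% of genes called). At an unadjusted p under 0.05 there was no member, beside 214 of 15284 genes. The number again divided the pairs: 9 of 10 members were higher in the dead rescue in numbers 2 and 3, and 3, 0 and 1 were in numbers 1, 4 and 5. Nlrc5 was lower in 5 of 5 pairs, as were 1.54% of genes, by 0.01 to 0.32 on the log2 scale. Its dead rescue values were 16.71, 10.99, 17.76, 16.45 and 12.02 CPM, with 3 of 5 libraries within the range of shKdm6b and 2 below it.

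Between the rescues, which differ in the enzymatic activity of the domain, all 10 members were lower with the active form in the fit, and none was called. The Kdm6b count was also higher in the active rescue in every same-numbered pair, and its part in the members' difference was not tested. Paired log2 fold changes ran from -0.14 (Nlrc5) to -0.56 (Psmb9), with a median of -0.26 against 0.01 over all genes. In paired edgeR the adjusted p was 1 for every member and 0.00654% of genes were called. An unadjusted p under 0.05 was held by 6 members and by 415 of 15284 genes. Of the 10 members 9 were lower in at least 4 of 5 pairs, as were 15.5% of genes, and Psmb9 was lower in 5 of 5, as were 2%. In number 1 the order was turned: 9 of 10 members were higher with the active form, and in numbers 2 to 5 the members higher were 0, 0, 1 and 0. All 10 fold changes stayed negative without the libraries numbered 4 (median -0.31) and in numbers 1 to 3 alone (median -0.29). Without the active rescue library numbered 3, Nlrc5 alone turned positive, at 0.01.

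Psmb9, an immunoproteasome subunit, measured 12.3, 6.34, 14.5, 33.1 and 12.4 CPM in the active rescue and 14.09, 14.18, 24.45, 39.87 and 16.26 CPM in the dead rescue. The ranges overlapped and every active library was the lower of its pair (-0.56 ± 0.20 SE, paired edgeR adjusted p = 1). H2-K1 measured 411, 295, 382, 582 and 196 CPM in the active rescue and 374, 473, 490, 799 and 297 CPM in the dead rescue. It was higher with the active form in number 1 and lower in the other 4 pairs (-0.39 ± 0.16 SE, paired edgeR adjusted p = 1). Nlrc5 in the active rescue measured 18.19, 9.16, 10.001, 23.89 and 8.12 CPM, with 2 libraries within the control range, 1 below it and 2 above it.

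Against control, the rescues were placed differently, and these comparisons share their control libraries with each other and with shKdm6b against control. The dead rescue had positive fold changes for all 10 members, 0.22 (Psmb8) to 0.43 (Tap1), with a median of 0.40 against 0.0035 over all genes. In paired edgeR 0 of 10 were called, where 1.18% of genes were, and the lowest adjusted p values were 0.11 (Tap1) and 0.114 (Tapbp). An unadjusted p under 0.05 was held by 6 members and by 1636 of 15284 genes. Paired DESeq2 called Tap1 (adjusted p = 0.041) and Tapbp (0.0329), where 2.98% of genes were called and 1.38% were called higher. Of the 10 members 4 (B2m, H2-D1, Tap1 and Tapbp) were higher in 5 of 5 pairs, as were 6.48% of genes. Of the 50 member pairs, which again rest on 5 pairs of libraries, 42 were higher. Number 3 showed the largest difference, with a median of 0.81, and number 1 the smallest, with 0.07. The active rescue lay at a median of 0.07 against 0.02 over all genes, with 8 positive and 2 negative fold changes, -0.16 (Psmb9) to 0.26 (Nlrc5). None of its members was called in paired edgeR (lowest adjusted p = 0.57, 1.96% of genes called). No member had an unadjusted p under 0.05, which 1981 of 15284 genes had, and 26 of 50 member pairs were higher. Without pairing, edgeR called no member in any of the 5 comparisons that involve a rescue, and 0% of genes in each.

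**Figure D3:**
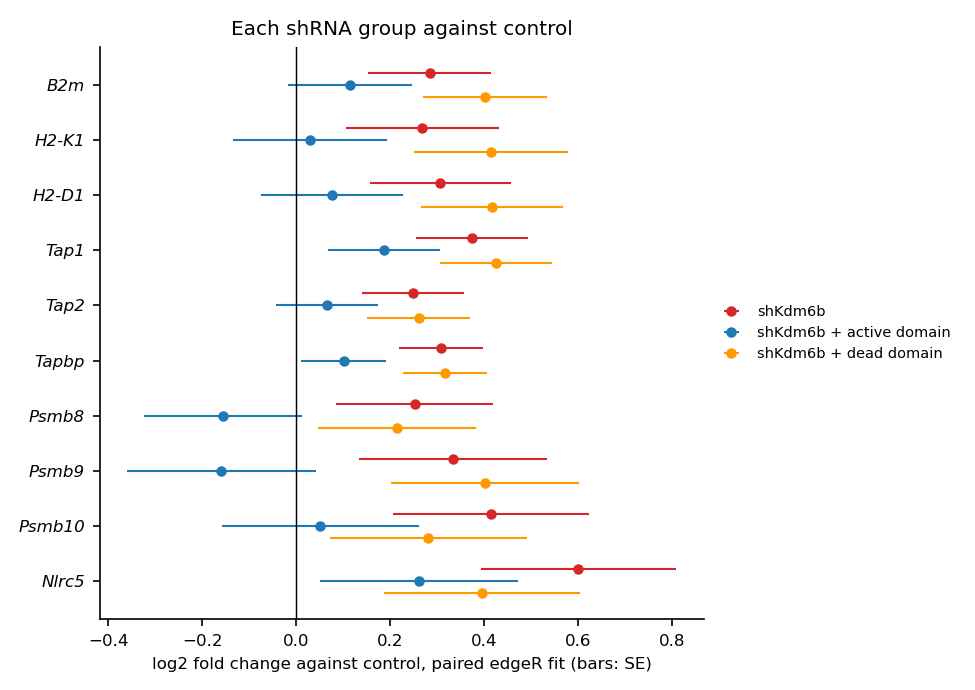
Log2 fold change of each member against control in the paired edgeR fit (points, with SE bars) for shKdm6b and the 2 rescues. The shKdm6b and dead rescue points lie right of 0 for all 10 genes, with medians of 0.31 and 0.40, and the active rescue points have a median of 0.07.

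Each immunoproteasome subunit was also set against the constitutive subunit whose place it takes, a ratio that cancels the scaling of the library. Psmb10 relative to Psmb7 was higher in shKdm6b than in control in 5 of 5 pairs, by 0.27 ± 0.14 on the log2 scale (SD over pairs). The ratio of Psmb8 to Psmb5 differed by 0.11 ± 0.27 and that of Psmb9 to Psmb6 by 0.25 ± 0.41, each with 3 of 5 pairs higher and a spread larger than the difference. From dead rescue to active rescue the 3 ratios, Psmb8, Psmb9 and Psmb10 in turn, differed by a mean of -0.31 ± 0.34, -0.50 ± 0.48 and -0.14 ± 0.20, each with 1 of 5 pairs higher. In the dead rescue the first and second ratios exceeded control in 5 of 5 pairs. Per library, Psmb8 reached 34.2 to 92.7% of the count level of Psmb5 in control, Psmb9 11.4 to 19.7% of Psmb6, and Psmb10 18.2 to 65.8% of Psmb7, without correction for gene length. In shKdm6b against control the constitutive subunits themselves had log2 fold changes of 0.14 (Psmb5), 0.05 (Psmb6) and 0.14 (Psmb7) (paired edgeR adjusted p = 0.752, 0.946 and 0.717).

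**Figure D4:**
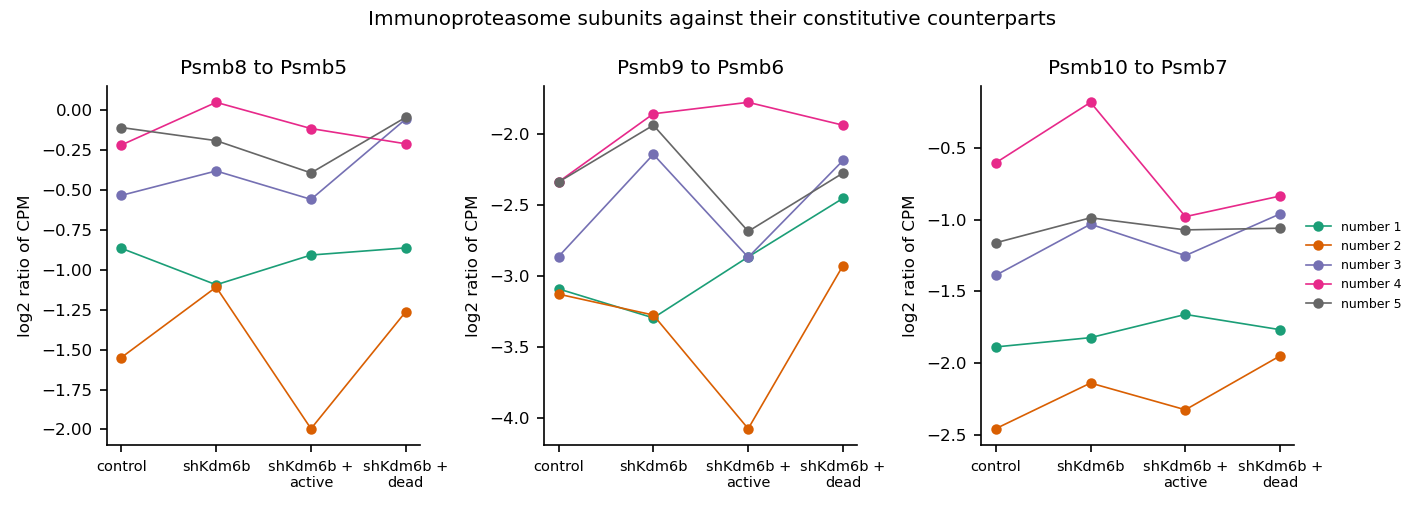
Log2 ratio of CPM of each immunoproteasome subunit to its constitutive counterpart, per library, in the 4 groups; lines join libraries of the same number. Psmb10 to Psmb7 is higher in shKdm6b than in control for every number, while each other ratio is higher in 3 of 5.

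Other parts of the pathway were read from lists chosen for it. Of the other class I heavy chains, 16 passed the filter; in shKdm6b against control none was called, 13 were positive and the median was 0.23. H2-T23, the mouse Qa-1 molecule seen by natural killer receptors, stood at 0.19 (paired edgeR adjusted p = 0.6) and H2-M3, which presents formylated peptides, at 0.11 (0.818). The 20 loading and trimming partners, which class I shares with general protein folding and turnover, had a median of 0.04 and no call: the chaperone Calr at -0.06, the disulfide isomerase Pdia3 at 0.05, the trimming peptidase Erap1 at 0.12 and the tapasin relative Tapbpl at 0.20. The 14 constitutive subunits of the proteasome core had a median of 0.13, with 13 positive and no call. The members' median of 0.31 therefore lay above that of each of these lists, a difference that was not tested.

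Among 27 regulators of class I genes none was called either, and their median was 0.01. Irf1, an activator of class I promoters, was higher in 4 of 5 pairs (0.25, paired edgeR adjusted p = 0.163). Rfx5, which binds the class I promoter with Nlrc5, was at 0.11 (0.84). Of 32 interferon-stimulated effectors 6 rose in shKdm6b in the paired fit and 0 fell, where 1.72% of all genes were called higher, and all 32 were positive with a median of 0.35. The 4 with the smallest p were the antiviral proteins Ifit3 (0.63, paired edgeR adjusted p = 0.00731) and Ifit3b (0.65, 0.00929), which share similar sequence, Rtp4 (0.37, 0.0197) and the deconjugase of Isg15, Usp18 (0.59, 0.0257). Between the active and dead rescue, 30 of these 32 were negative with a median of -0.31, and none was called in paired edgeR. Without pairing, edgeR called none of the 32 in any comparison.

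The members' difference was set beside markers of other cell types. Microglia and macrophage markers did not follow the members in shKdm6b against control: all 18 were negative, with a median of -0.37, and Tmem119, a microglial surface protein, fell (-0.67, paired edgeR adjusted p = 0.0293). Their summed level ran from 762 to 3775 CPM in control and from 735 to 2136 CPM in shKdm6b, and was higher in shKdm6b in 2 of 5 pairs. Astrocyte and Bergmann glia markers had no call among 14, with 9 positive, a median of 0.10 and a summed level higher in 2 of 5 pairs. Fibroblast and meningeal markers (0 called of 10) had a summed level higher in 0 of 5 pairs. Granule neuron markers summed lower in 5 of 5 pairs, and of 14, 2 rose and 4 fell: Tubb3, a neuronal tubulin, rose (0.64), while Cbln3, a synaptic organiser (-0.77), the transcription factor Etv1 (-1.02) and the release protein Snap25 (-0.83) were among those that fell (paired edgeR adjusted p = 0.00173, 0.00183, 0.00383 and 0.00847). Of 8 pericyte and mural markers 1 fell, Cspg4 (-0.59, paired edgeR adjusted p = 0.0233), a proteoglycan also made by oligodendrocyte precursors, and their summed level was higher in 0 of 5 pairs. None of 12 endothelial markers was called (6 positive, median 0.04); their summed level, 68.0 to 209 CPM over all libraries, was higher in 4 of 5 pairs. Of its defining markers Cldn5 was at 0 in 8 libraries, with at most 1.497 CPM, and Pecam1 was at 0 in none. None of 10 oligodendrocyte lineage markers was called (3 positive, median -0.19). Without pairing, edgeR called none of these marker genes (adjusted p = 1 for each one named). T cell genes were at or near 0: Cd3e was at 0 in 14 of 20 libraries and Cd8a in 12, with highest values of 0.92 and 0.30 CPM.

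Class II genes, which mark professional antigen-presenting cells, were low throughout. H2-Aa was at 0 in 4 libraries and at most 0.47 CPM, and Cd74, the class II chaperone, ran from 2.41 to 9.67 CPM. Of 6 class II genes tested none was called in shKdm6b against control, but 5 were positive, the median was 0.28, close to the 0.31 of the members, and the summed level was higher in 5 of 5 pairs (12.2 to 35.2 CPM in control, 14.8 to 35.8 CPM in shKdm6b). The part of cell composition in the members' differences was not tested.

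**Figure D5:**
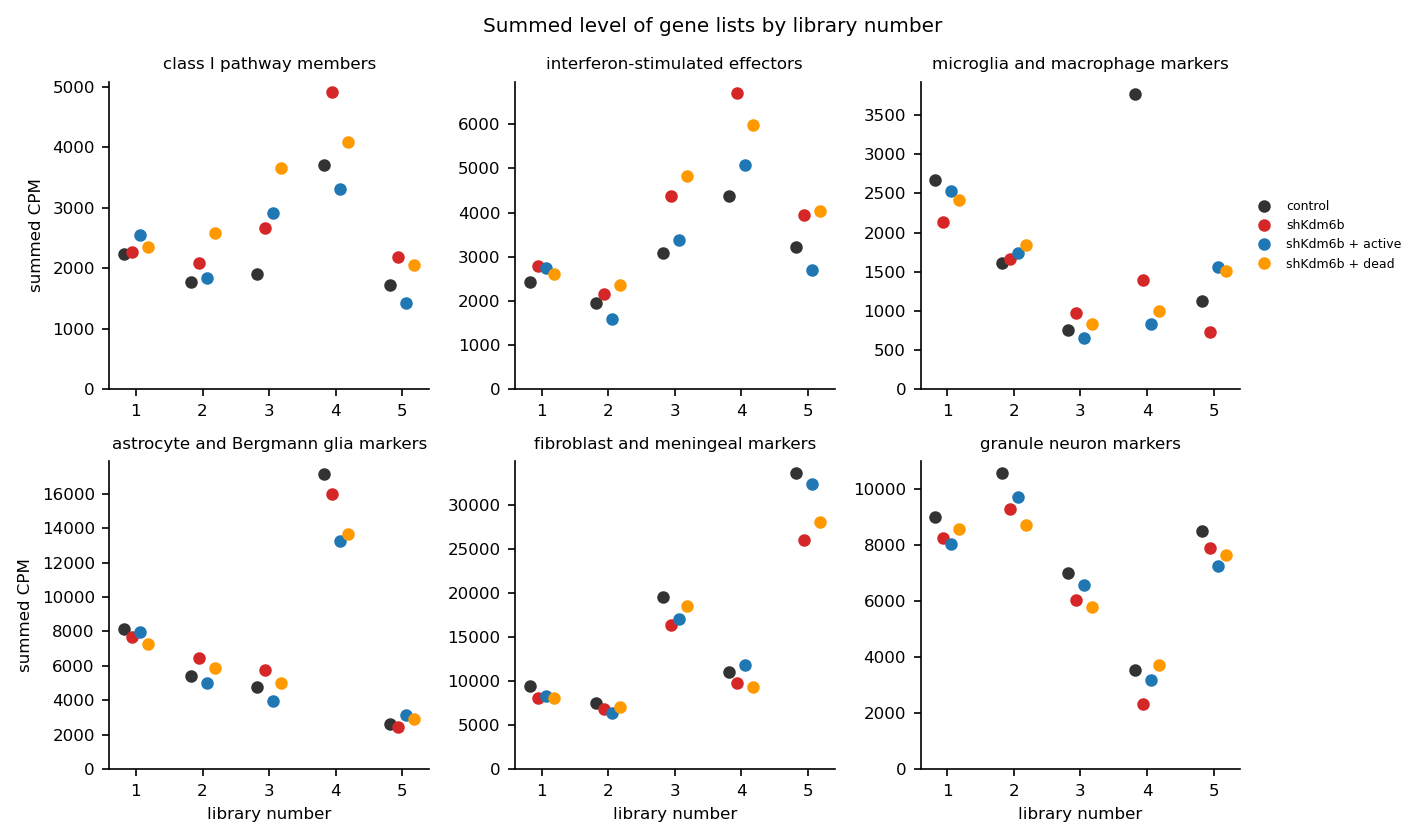
Summed CPM of the 10 members and of 5 other gene lists against library number, with points coloured by group and axes from 0. Within each group the members, the interferon-stimulated effectors and the astrocyte markers are highest in number 4, where the granule neuron markers are lowest, at 2340 to 3709 CPM.

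After the mean of each number was removed, the genes outside all lists whose levels ran most like the mean of the members over the 20 libraries were Lgals9 (Pearson r = 0.955), a galectin, Ube2l6 (0.953), the E2 enzyme for Isg15, Oas1g (0.936) and Oas1b (0.898), of the oligoadenylate synthetase family, and Pnp (0.899), an enzyme of purine salvage. These 20 values share libraries and group differences, so the correlations are a description. Among the members themselves, r with the common mean was 0.81 (Psmb10) to 0.95 (H2-K1) for 9 genes, and 0.427 for Nlrc5. That mean includes the gene itself, which raises r, so these values cannot be set beside those of the outside genes. The activator was therefore the member whose level followed the common mean least.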

How the data were processed

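RNA of 20 libraries was sequenced, 5 per group. Per the deposited table's name, the authors estimated counts per gene with salmon; these estimated counts were deposited unscaled, with 7.03 to 11.2% of a library's entries not whole. The submitters' processing notes name mm10; for the salmon version, the annotation and the strand setting the sources used here give nothing. Columns were assigned by name, and no columns were identical.

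Counts were rounded and filtered with filterByExpr, which left 15284 of 24411 genes, scaled by TMM and compared with edgeR 4.0.16 (R 4.3.3; robust quasi-likelihood test, two-sided, all libraries in 1 fit, Benjamini-Hochberg over all genes tested, threshold 0.05). SE is the log2 fold change divided by the root of F. CPM uses TMM-scaled library sizes, and pair differences are of log2 CPM with a prior count of 1. The design set down had no block. The numbers 1 to 5 were then tested as a possible pairing: deviations from group means correlated across genes in each of 30 same-numbered library pairs (r 0.361 to 0.881, limit 0.1), which comes from the data and not from the labels, so the fit with the number as a block is given too. Counts were simulated for shKdm6b against control (15284 genes) from the means and dispersions of the paired fit itself, with changes in better expressed genes only. There the paired fit recovered 53.7% of 1.5-fold changes, against 7.46% without pairing, with 5 of 163 calls false. Data made in this way favour the paired fit in advance, so these rates do not test whether the pairing is right.

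Alternatives were DESeq2 1.42.0, other scalings, no filter, fits of the compared groups alone, and fits without single libraries, without numbers 4 or 5, and with numbers 1 to 3 alone. The 10 members are named throughout; from each of 14 other lists, up to 4 called genes with the smallest p in the paired fit and partners of the members (a gene that this rule gives is not reported here); and 5 genes by likeness among those with a mean of at least 5 CPM. Members, lists and tests were chosen with earlier results of these data known.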

Additional observations from a re-analysis of the deposited data

Results flagged for a closer look

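Within the groups of 5, 7 of 40 sets of member values (10 genes in 4 groups) had a highest library far from the others. The rule used gives at most about 1 in 20 by chance for independent, normally distributed values, a rate that need not hold for these CPM values. The measure is the gap from the highest library to the next, as a share of the group's whole range, with a limit of 0.71. In every one of the 7 the library was numbered 4, so they are not independent of each other. In shKdm6b they were B2m (share 0.761; 1815 CPM against 1027 for the next library), H2-K1 (0.945; 995 against 353 CPM), Psmb8 (0.777; 194 against 68.4 CPM), Psmb9 (0.813; 70.3 against 20.03 CPM) and Psmb10 (0.831; 192 against 52.8 CPM). In control they were Psmb9 (0.839; 42.6 against 14.7 CPM) and Psmb10 (0.821; 124 against 38.6 CPM). The rescue groups had none, and the difference between groups in this respect was not tested.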

How the results depend on the processing

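Without pairing, and with the replicate block on all libraries, edgeR called 0 of 10 members in each comparison. The block raised the calls among all genes from 1 to 632 in shKdm6b against control, where DESeq2 called 64 without it and 944 with it. Members called in shKdm6b against control became 1 with paired DESeq2 and 7 with the paired fit of the 2 groups only, and 0 to 2 when single libraries were left out of the paired fit; in the dead rescue against control they became 2 with paired DESeq2. The cause was not tested. Every member stayed positive in shKdm6b against control and in the dead rescue against control under all 90 other values and 200 values without 1 library computed for each.

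Other directions turned in places, never past the threshold. Against shKdm6b the active rescue became positive in numbers 1 to 3 alone for B2m (0.093), H2-K1 (0.0755), H2-D1 (0.038) and Psmb10 (0.026). The dead rescue against shKdm6b became negative without the block for Tap2 (-0.053, and -0.051 with DESeq2) and Psmb9 (-0.24 and -0.24). It became positive without number 4 and in numbers 1 to 3 alone for Psmb8 (0.16 and 0.23) and Psmb10 (0.12 and 0.24). With single libraries left out its paired values ranged from -0.031 to 0.13 (Tap1), -0.073 to 0.095 (Tap2), -0.056 to 0.073 (Tapbp), -0.14 to 0.12 (Psmb8), -0.067 to 0.26 (Psmb9) and -0.27 to 0.077 (Psmb10). Nlrc5 between the active and dead rescue ranged from -0.42 to 0.0061. The active rescue against control became negative without the block for H2-K1 (-0.0043, and -0.024 with DESeq2) and Psmb10 (-0.18 and -0.21), became positive in numbers 1 to 3 for Psmb8 (0.045), and became negative for Nlrc5 without number 4 (-0.085) and in numbers 1 to 3 (-0.0052). Its values with single libraries left out ranged from -0.11 to 0.12 (H2-K1), -0.049 to 0.16 (H2-D1), -0.013 to 0.14 (Tap2), -0.058 to 0.23 (Psmb10) and -0.0019 to 0.40 (Nlrc5). The cause of these turns was not tested.

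Nlrc5 and Psmb9 had the lowest CPM of the members and so rest on the fewest reads, and the overlap of sequence between H2-K1, H2-D1 and other heavy chains limits how far each is measured by itself.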
